A study of Mus musculus with 8 samples.

Results

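Retinoic acid is made from vitamin A and acts as a ligand of nuclear receptors. The genes described here are 9 named members of that pathway, listed by name with earlier results of these data known, and without a threshold on any value: the binding proteins Crabp1 and Crabp2, the receptors Rara, Rarb and Rarg, the degrading enzymes Cyp26a1 and Cyp26b1, the uptake receptor Stra6 and the reductase Dhrs3. They were 9 of 48440 genes counted, and all 9 were among the 17049 genes that passed a filter on low counts. Mouse embryonic stem (ES) cells were sequenced on day 1 of differentiation in vitro, as 8 libraries, 2 for each of 4 genotypes of Tbxt, the gene of the mesoderm transcription factor Brachyury. All lines derive from MK6, a C57BL/6J ES cell line. WT cells are unedited, Tbxt delE6/delE6 cells lack exon 6 of Tbxt on both alleles, Tbxt delE6/+ cells lack it on 1 allele, and Tbxt Insert ASAY cells carry a pair of human Alu elements (AluY and AluSx1) in the introns around exon 6 on both alleles. All libraries share the same culture without feeder cells, in N2B27 medium with the GSK3 inhibitor CHIR99021, which mimics Wnt signalling. The Tbxt delE6/delE6 libraries came from different clones, and the number of clones behind the other lines is not given in the sources used here. The Tbxt Insert ASAY line was edited on feeder cells and later lost its selection cassette through Cre, and the exon 6 deletion was made without feeder cells, so the route of editing and the genotype cannot be told apart.

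Cells take up retinol with the help of STRA6, retinol and retinaldehyde dehydrogenases turn it into retinoic acid, and DHRS3 runs the first of these steps backwards. CRABP proteins carry retinoic acid inside the cell, where CRABP2 delivers it to nuclear receptors, and CYP26 enzymes break it down. The RAR receptors, paired with RXR receptors, bind DNA at direct repeats of a short half-site, and among their best known targets are Rarb, Cyp26a1, Stra6, Crabp2, Dhrs3 and Hox genes. In the embryo the pathway patterns the hindbrain and trunk, and CYP26 enzymes keep the tailbud low in retinoic acid.

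Both libraries of a genotype held similar numbers of reads, 24618587 to 28445952 on genes per library. Values are CPM, the counts per 1000000 reads of a library size scaled by the TMM method of edgeR. Calls required an adjusted p under 0.05 (edgeR quasi-likelihood test, Benjamini-Hochberg over 17049 genes) and a log2 fold change over 0.5 in size. Tbxt itself had 47 and 42 reads in WT, 26 and 22 in Tbxt delE6/delE6, 30 and 29 in Tbxt Insert ASAY and 39 and 54 in Tbxt delE6/+. A count of the whole gene does not show exon 6 and so does not check the labels. The Tbxt delE6/delE6 libraries differed more than other pairs, with 40 genes over 1 log2 unit apart against 6 to 10 in the other genotypes. All 8 ES cell markers listed had reads in every library, and their summed level was 1057 and 1113 CPM in WT, 483 and 635 in Tbxt delE6/delE6, 692 and 736 in Tbxt Insert ASAY and 590 and 591 in Tbxt delE6/+. Dppa5a, the highest of them in WT, weighed most on these sums, at 561 and 528 CPM in WT and 183 and 180 in Tbxt delE6/+. Zfp42 was at 29.4 and 28.7 CPM in WT and higher, at 40.2 and 39.2, in Tbxt Insert ASAY. Of the 8 markers 5 were called lower in Tbxt delE6/delE6, 3 in Tbxt Insert ASAY and 5 in Tbxt delE6/+, where Sox2 was called higher. The shares of all tested genes called in either direction were 12.7%, 21.3% and 13.5% in these lines. In bulk RNA, fewer cells of a type and less RNA per cell cannot be told apart.

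The direct repeat of the half-site with a spacer of 5 bases, called DR5, is the classical RAR response element. Promoter windows of RefSeq (GRCm38.p6, 250 bases before to 50 after each start) were searched on both strands for pairs of half-sites in the same orientation. The half-site was AGGTCA or, with T in place of its second G, AGTTCA. Its first base could also be G, which gives GGGTCA and, with that T, GGTTCA. DR5 stood in 32 of 32851 windows (0.0974%). Of the 8 genes described here that have a window, Rarb and Cyp26a1 held it, and these sites are shown because these genes then moved in opposite directions in 2 of the lines. The Rarb site lies at chr14:16575513-16575529 on the minus strand, 53 to 37 bases before the RefSeq start. GENCODE M21 places it in the 5′ UTR of the transcripts Rarb-201 and Rarb-207 and within an intron of the longer Rarb-203 and Rarb-204. The Cyp26a1 site lies at chr19:37697776-37697792 on the plus strand, 32 to 16 bases before the RefSeq start, reads on the opposite strand of the gene, and stands outside any annotated exon. The site is in capitals, with 6 bases on each side for Rarb (chr14:16575507-16575535, minus strand) and with the upstream 240 bases for Cyp26a1 (chr19:37697558-37697797, plus strand).
Rarb: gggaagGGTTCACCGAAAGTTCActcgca
Cyp26a1: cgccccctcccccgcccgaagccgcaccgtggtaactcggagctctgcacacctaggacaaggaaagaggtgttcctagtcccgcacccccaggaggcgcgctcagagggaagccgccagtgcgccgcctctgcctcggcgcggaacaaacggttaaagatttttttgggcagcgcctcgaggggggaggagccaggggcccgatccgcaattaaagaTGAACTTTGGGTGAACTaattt
The same half-sites with a spacer of 2 bases (DR2) stood in 88 windows (0.268%) and with a spacer of 1 base (DR1) in 73 (0.222%), and in no window of the 8 genes. A match is a run of letters and not a bound site. Crabp2 was not in the promoter table.

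Levels per length, as CPM per kb of exon averaged over the 8 libraries, ordered the genes as Crabp1 (25.3), Rarg (14.6), Crabp2 (9.32), Rara (5.80), Stra6 (3.01), Rarb (0.628), Dhrs3 (0.508), Cyp26a1 (0.297) and Cyp26b1 (0.130). Crabp1 stood above 87.3% of tested genes on this scale, and Cyp26b1 above 4.34%. The low genes limit what can be compared. Cyp26a1 had 6 to 27 reads per library, Cyp26b1 10 to 34, Dhrs3 22 to 58 and Rarb 43 to 165. Counting error alone gives the lowest Cyp26a1 count of 6 an exact 95% Poisson interval of 2.20 to 13.1 reads and the highest, 27, one of 17.8 to 39.3. All 9 genes passed the filter, but Cyp26a1 and Cyp26b1, with under 35 reads in every library, are at the edge of what 2 libraries per genotype can compare.

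**Figure D1:**
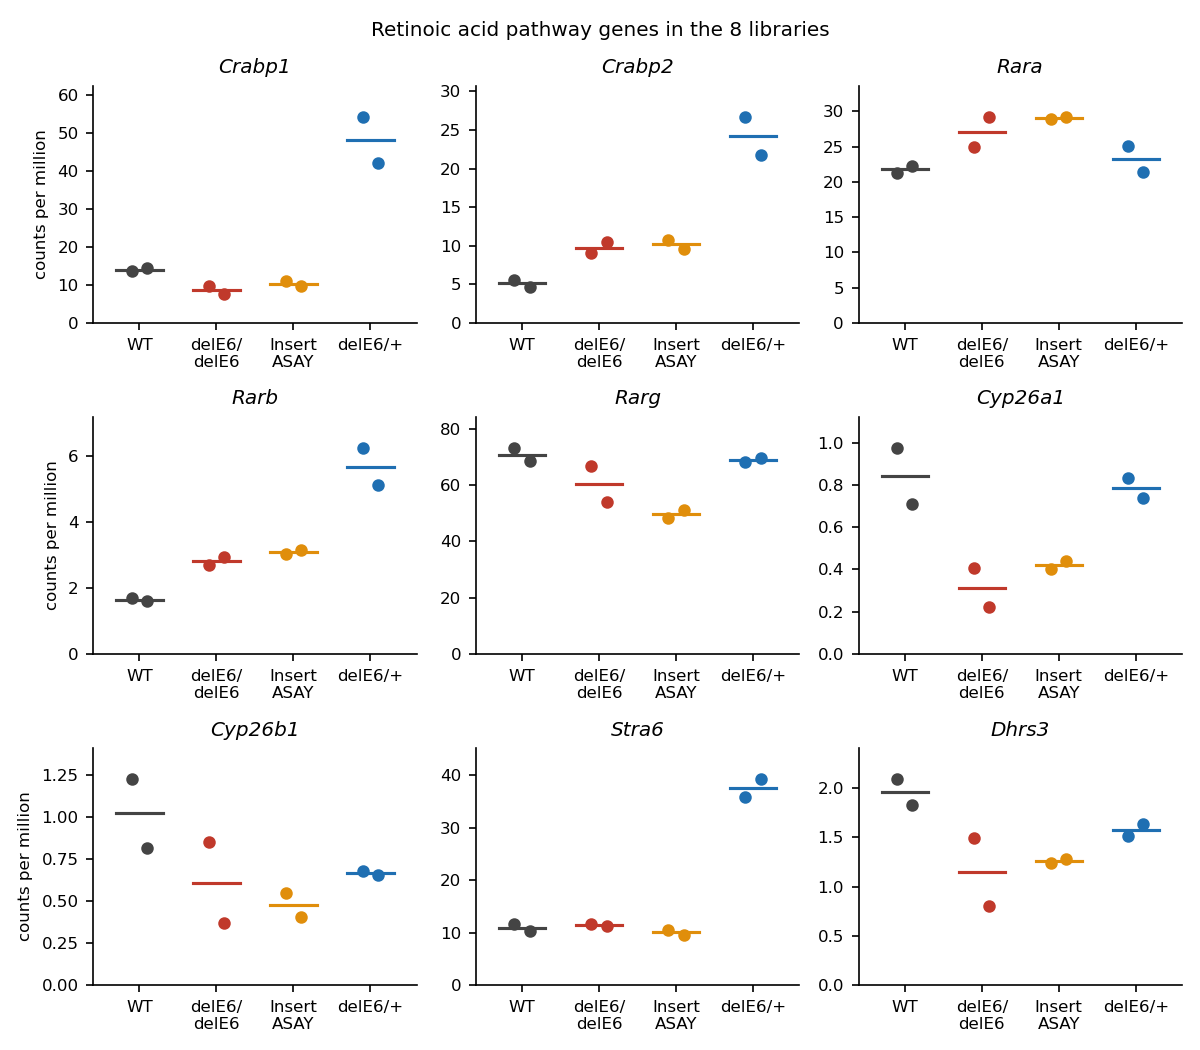
Level of each of the 9 genes in CPM (y axis, from 0, on a scale of its own per gene) in the 4 genotypes (x axis). Points are the 2 libraries of a genotype and bars their mean; Crabp1, Crabp2, Rarb and Stra6 stand highest in Tbxt delE6/+, where Crabp1 is at 42.1 and 54.2 CPM against 13.6 and 14.4 in WT.

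The comparison of each edited line with WT gives differences between lines. In these, the edit cannot be told apart from other differences between the lines, such as clone or route of editing. Against WT, Tbxt delE6/+ cells had 4 genes higher, Tbxt delE6/delE6 cells 2 higher and 3 lower, and Tbxt Insert ASAY cells 2 higher and 3 lower. Crabp2 and Rarb were called higher in all 3 lines, in comparisons that share the same 2 WT libraries and so are not independent. Crabp1 was called higher in Tbxt delE6/+ and lower in Tbxt delE6/delE6. Of all tested genes, 12.7% were called in Tbxt delE6/delE6, 13.5% in Tbxt delE6/+ (6.6% called higher) and 21.3% in Tbxt Insert ASAY. An F-test over the 4 genotypes passed an adjusted p of 0.05 for 7 of the 9 genes, beside 66.4% of all tested genes; Cyp26b1 (adjusted p = 0.104) and Dhrs3 (adjusted p = 0.0740) missed it, although all 9 passed without Tbxt delE6/delE6 replicate 1.

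Among the binding proteins, Crabp1 was at 13.6 and 14.4 CPM in WT, 9.84 and 7.52 in Tbxt delE6/delE6, 10.9 and 9.70 in Tbxt Insert ASAY and 54.2 and 42.1 in Tbxt delE6/+. Both Tbxt delE6/+ libraries were above every other library, and all 4 libraries of the other edited lines were below both WT libraries. Crabp1 rose 3.44-fold in Tbxt delE6/+ (log2 fold change 1.78 ± 0.13 SE, adjusted p = 5.83e-07, n = 2 against 2). It fell in Tbxt delE6/delE6 to 0.617 times WT (log2 fold change -0.70 ± 0.15, adjusted p = 0.00340). In Tbxt Insert ASAY its log2 fold change of -0.44 (adjusted p = 0.0231) was under the size threshold; without Tbxt Insert ASAY replicate 1 it was -0.53 and called.

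Crabp2, which hands retinoic acid to the receptors, was at 5.59 and 4.65 CPM in WT, 9.07 and 10.5 in Tbxt delE6/delE6, 10.8 and 9.59 in Tbxt Insert ASAY and 26.7 and 21.7 in Tbxt delE6/+. The WT libraries were the lowest 2 and the Tbxt delE6/+ libraries the highest 2 of the 8. Crabp2 rose 1.91-fold in Tbxt delE6/delE6 (log2 fold change 0.93 ± 0.15, adjusted p = 0.000599), 1.99-fold in Tbxt Insert ASAY (0.99 ± 0.15, adjusted p = 0.000156) and 4.72-fold in Tbxt delE6/+ (2.24 ± 0.14, adjusted p = 2.01e-07). Per length, Crabp1 stood at 4.01 and 5.12 times Crabp2 in WT, 3.35 and 3.20 times in Tbxt delE6/+, 1.79 and 1.19 times in Tbxt delE6/delE6 and 1.67 and 1.67 times in Tbxt Insert ASAY. Thus the ratio of Crabp1 to Crabp2 was smaller in all 6 edited libraries than in either WT library.

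Crabp2 lies on chromosome 3 (chr3:87948666-87953376, GRCm38), and many genes of that chromosome were higher in Tbxt delE6/+. Of 848 tested genes there, 242 were called higher and 64 lower, with a median log2 fold change of 0.32 against -0.0006 over all tested genes. Of the 20 tested genes nearest to Crabp2, 8 were called higher in Tbxt delE6/+, with a median of 0.45. In Tbxt delE6/delE6 the same 20 genes had a median of -0.06 (2 higher, 3 lower) and in Tbxt Insert ASAY of -0.20 (1 higher, 4 lower). The highest of these neighbours in Tbxt delE6/+, Gm19439, was at 1.06, against 2.24 for Crabp2. The gap was smaller in the other lines. In Tbxt delE6/delE6 the highest neighbour, Nes, was called at 0.81, against 0.93 for Crabp2. In Tbxt Insert ASAY it was Gpatch4, called at 0.90, against 0.99 for Crabp2. The part of the chromosome in the rise of Crabp2 was not tested. For the 7 genes other than Crabp2 and Dhrs3, the median of the 20 nearest tested genes lay between -0.12 and 0.08 in Tbxt delE6/+.

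**Figure D2:**
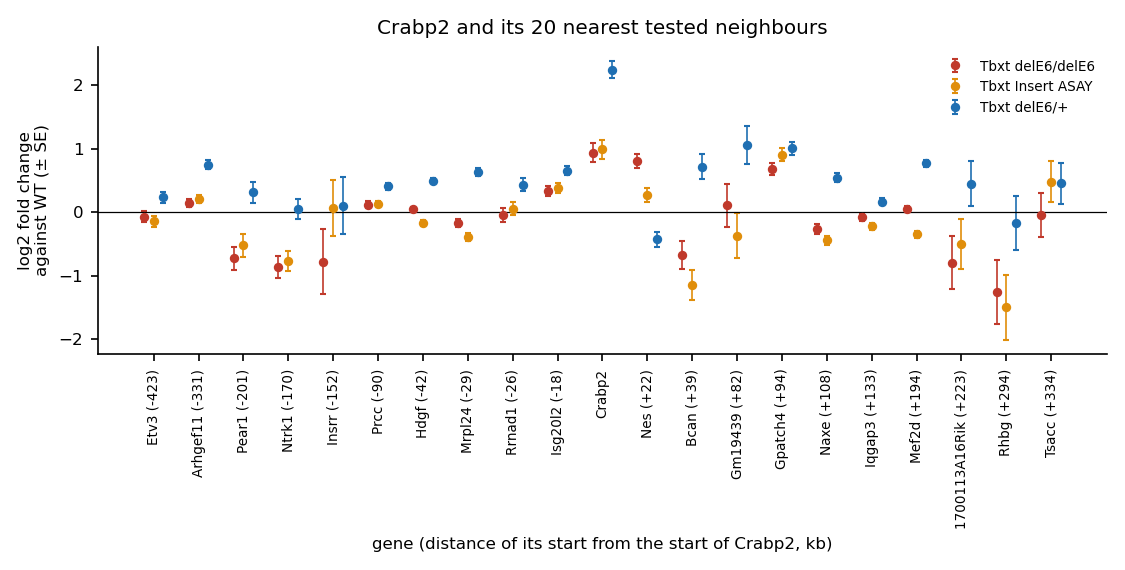
Log2 fold change against WT (y axis, bars are SE) of Crabp2 and the 10 tested genes on each side of it, in chromosomal order, for the 3 edited lines; the x axis names each gene with its distance from the start of Crabp2 in kb. Crabp2 in Tbxt delE6/+ stands at 2.24 and the highest neighbour in that line at 1.06. In Tbxt delE6/delE6 these values are 0.93 and 0.81 (Nes), and in Tbxt Insert ASAY 0.99 and 0.90 (Gpatch4).

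Among the receptors, Rarb was at 1.70 and 1.60 CPM in WT, 2.71 and 2.93 in Tbxt delE6/delE6, 3.02 and 3.15 in Tbxt Insert ASAY and 6.25 and 5.11 in Tbxt delE6/+. The genotypes did not overlap, though Tbxt delE6/delE6 and Tbxt Insert ASAY were close, with an adjusted p of 0.688 between them in edgeR. Rarb, itself a target of the receptors, rose 1.71-fold in Tbxt delE6/delE6 (log2 fold change 0.78 ± 0.20, adjusted p = 0.00879), 1.87-fold in Tbxt Insert ASAY (0.90 ± 0.19, adjusted p = 0.00196) and 3.44-fold in Tbxt delE6/+ (1.78 ± 0.18, adjusted p = 9.82e-06). The call in Tbxt delE6/delE6 was lost without WT replicate 2 (log2 fold change 0.73, adjusted p = 0.0604). Exons of Top2b and of the antisense gene Gm48162 overlap 38.4% of the exon bases of Rarb on the opposite strand; the counts used keep the strand.

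Rara was at 21.3 and 22.3 CPM in WT, 24.98 and 29.2 in Tbxt delE6/delE6, 29.0 and 29.2 in Tbxt Insert ASAY and 25.1 and 21.4 in Tbxt delE6/+. All 4 libraries of Tbxt delE6/delE6 and Tbxt Insert ASAY were above WT, and those of Tbxt delE6/+ overlapped it. Its log2 fold changes of 0.32 (adjusted p = 0.0205) and 0.42 (adjusted p = 0.00269) in the first 2 lines did not reach 0.5, nor did 0.10 (adjusted p = 0.487) in Tbxt delE6/+.

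Rarg was the receptor with the most reads, at 73.1 and 68.4 CPM in WT, 66.6 and 54.1 in Tbxt delE6/delE6, 48.3 and 51.1 in Tbxt Insert ASAY and 68.2 and 69.4 in Tbxt delE6/+. Tbxt Insert ASAY held the lowest 2 libraries. Rarg fell there to 0.702 times WT (log2 fold change -0.51 ± 0.08, adjusted p = 0.000277), just past the size threshold: without WT replicate 1 the log2 fold change was -0.46 and without Tbxt Insert ASAY replicate 1 it was -0.47. In Tbxt delE6/delE6 it was -0.23 (adjusted p = 0.0415) and in Tbxt delE6/+ -0.04 (adjusted p = 0.747), both not called.

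Per length, Rarg made up 76.8% and 74.8% of the summed level of the 3 receptors in WT, 71.5% and 63.7% in Tbxt delE6/delE6, 61.1% and 62.2% in Tbxt Insert ASAY and 69.8% and 73.5% in Tbxt delE6/+. Rarb made up 1.44% and 1.42% in WT and 5.17% and 4.38% in Tbxt delE6/+, where its share was highest of the 4 genotypes. The summed level stayed between 18.5 and 22.9 CPM per kb in all 8 libraries. The fold changes of Rarb thus concerned the scarcest of the 3 receptors.

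Stra6, the membrane receptor that takes up retinol, was at 11.7 and 10.2 CPM in WT, 11.6 and 11.3 in Tbxt delE6/delE6, 10.5 and 9.59 in Tbxt Insert ASAY and 35.9 and 39.3 in Tbxt delE6/+. The Tbxt delE6/+ libraries stood above the other 6, which lay within 9.59 to 11.7 CPM. Stra6 rose 3.43-fold in Tbxt delE6/+ (log2 fold change 1.78 ± 0.09, adjusted p = 5.82e-08). The log2 fold change was 0.07 (adjusted p = 0.645) in Tbxt delE6/delE6 and -0.12 (adjusted p = 0.359) in Tbxt Insert ASAY.

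**Figure D3:**
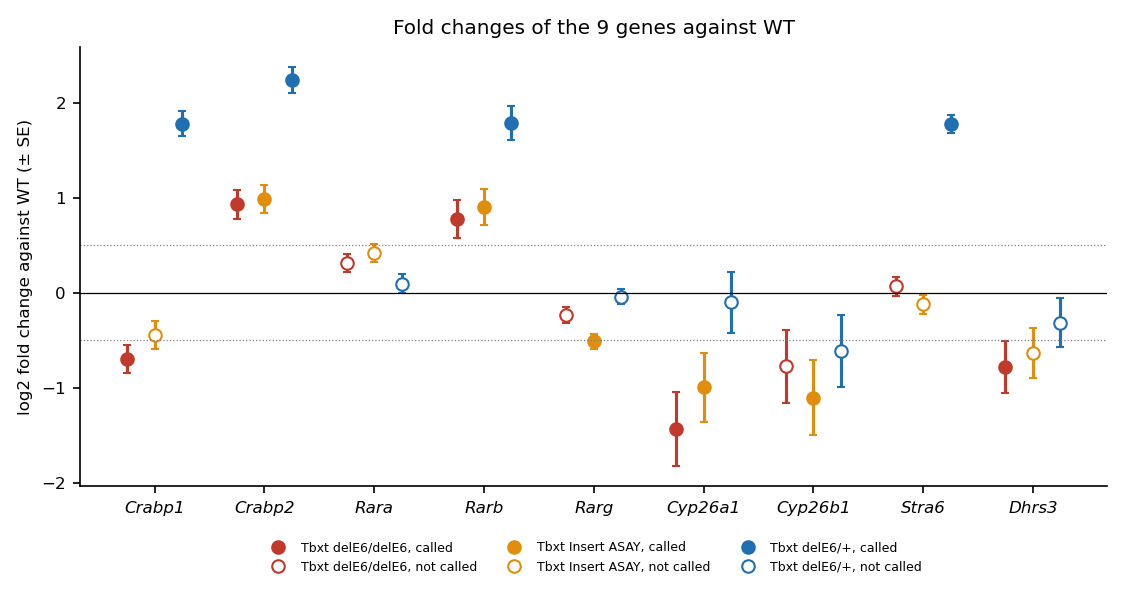
Log2 fold change of each gene against WT (y axis) with its standard error, for the 3 edited lines. Filled points passed an adjusted p of 0.05 and a size of 0.5 (dotted lines), open points did not; in Tbxt delE6/+ the filled points are Crabp1, Crabp2, Rarb and Stra6, between 1.78 and 2.24.

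The degrading enzymes were low throughout. Cyp26a1 had 27 and 19 reads in WT, 10 and 6 in Tbxt delE6/delE6, 11 and 12 in Tbxt Insert ASAY and 22 and 18 in Tbxt delE6/+, or 0.974 and 0.707, 0.405 and 0.220, 0.401 and 0.439, and 0.833 and 0.736 CPM. The 4 libraries of Tbxt delE6/delE6 and Tbxt Insert ASAY were below the other 4. Cyp26a1 fell to 0.370 times WT in Tbxt delE6/delE6 (log2 fold change -1.44 ± 0.39, adjusted p = 0.0124) and to 0.501 times in Tbxt Insert ASAY (-0.996 ± 0.36, adjusted p = 0.0367), and was at 0.933 times WT in Tbxt delE6/+ (adjusted p = 0.852). DESeq2 gave no adjusted p for the first of these falls and 0.227 for the second.

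The call in Tbxt delE6/delE6 was lost without WT replicate 1 (log2 fold change -1.19, adjusted p = 0.113) and without Tbxt delE6/delE6 replicate 2 (-1.05, adjusted p = 0.125). The call in Tbxt Insert ASAY was lost in 6 of 15 alternatives: DESeq2 and leaving out WT replicate 1, either Tbxt Insert ASAY library or either Tbxt delE6/+ library, with adjusted p from 0.0547 to 0.240. Rarb and Cyp26a1, the pair with a DR5 shown above, were thus called in opposite directions in Tbxt delE6/delE6 and Tbxt Insert ASAY, the Cyp26a1 calls resting on at most 27 reads a library.

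Cyp26b1 had 34 and 22 reads in WT, 21 and 10 in Tbxt delE6/delE6, 15 and 11 in Tbxt Insert ASAY and 18 and 16 in Tbxt delE6/+. In CPM, Tbxt delE6/delE6 replicate 1 (0.850) was above WT replicate 2 (0.819), and the Tbxt Insert ASAY and Tbxt delE6/+ libraries were below both WT libraries. The gene was called lower in Tbxt Insert ASAY (0.466 times WT, log2 fold change -1.10 ± 0.40, adjusted p = 0.0356), and the log2 fold changes of -0.77 (adjusted p = 0.135) in Tbxt delE6/delE6 and -0.61 (adjusted p = 0.242) in Tbxt delE6/+ were not called. The call was lost in 6 of 16 alternatives, which were DESeq2 (adjusted p = 0.154) and leaving out WT replicate 1 (log2 fold change -0.78), either Tbxt Insert ASAY library (-1.34 and -0.90) or either Tbxt delE6/+ library (-1.11 and -1.10). Without Tbxt delE6/delE6 replicate 1, Cyp26b1 was called lower in that line too, at -1.47.

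Dhrs3, which reduces retinaldehyde back to retinol, was at 2.09 and 1.82 CPM in WT, 1.498 and 0.807 in Tbxt delE6/delE6, 1.24 and 1.28 in Tbxt Insert ASAY and 1.51 and 1.63 in Tbxt delE6/+. All 6 edited libraries were below both WT libraries. It was called in Tbxt delE6/delE6 alone (0.582 times WT, log2 fold change -0.78 ± 0.27, adjusted p = 0.0400); the value was -0.64 (adjusted p = 0.0637) in Tbxt Insert ASAY and -0.32 (adjusted p = 0.387) in Tbxt delE6/+. Over 16 alternatives the call in Tbxt delE6/delE6 was kept in 7, and of the 8 fits with 1 library left out only the one without Tbxt delE6/delE6 replicate 1 kept it (log2 fold change -1.27). Without Tbxt delE6/delE6 replicate 2 it was -0.39. In Tbxt Insert ASAY the gene was called in 4 of 16 alternatives, among them the fits without either Tbxt delE6/delE6 library (-0.64 and -0.64). Dhrs3 lies on chromosome 4, where 10 of its 20 nearest tested genes were called lower in Tbxt delE6/+ (median -0.67) and 6 higher in Tbxt Insert ASAY (median 0.21); the part of these neighbours in the values of Dhrs3 was not tested.

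Among the edited lines, Tbxt delE6/+ stood apart. Against Tbxt delE6/delE6, 5 genes were called higher in Tbxt delE6/+: Crabp1 by 5.57-fold (log2 fold change 2.48 ± 0.14, adjusted p = 4.96e-08), Stra6 by 3.27-fold, Cyp26a1 by 2.53-fold, Crabp2 by 2.48-fold and Rarb by 2.01-fold, beside 22.2% of all tested genes called in either direction. Cyp26a1 lost this call in DESeq2 (adjusted p = 0.108), without Tbxt delE6/delE6 replicate 2 (log2 fold change 0.95) and without Tbxt delE6/+ replicate 1 (1.24). Dhrs3 gained one without Tbxt delE6/delE6 replicate 1 (0.95). Against Tbxt delE6/+, Tbxt Insert ASAY had 4 genes lower, Crabp1 (log2 fold change -2.22), Stra6 (-1.90), Crabp2 (-1.25) and Rarb (-0.88), beside 27.5% of all tested genes. Rarg was at -0.47 in that comparison and passed the size threshold without Tbxt Insert ASAY replicate 2 (-0.51), and Cyp26a1, at -0.90, was called in 3 alternatives, among them the fits without a Tbxt delE6/delE6 library.

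Between Tbxt Insert ASAY and Tbxt delE6/delE6, edgeR called 0 of the 9 genes, beside 5.16% of all tested genes, and DESeq2 called 0. Only Rarg had an unadjusted p under 0.05 in edgeR (log2 fold change -0.28, adjusted p = 0.0398, under the size threshold). The log2 difference was 0.06 ± 0.14 for Crabp2 and 0.13 ± 0.18 for Rarb, and 0.25 ± 0.15 for Crabp1. For the low genes the error was wider, at 0.44 ± 0.45 for Cyp26a1 and -0.33 ± 0.44 for Cyp26b1.

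As a description over the 8 libraries, which share genotype and scaling, the log2 CPM of Crabp2 and Rarb had a Pearson r of 0.993, Crabp1 and Stra6 of 0.941, Cyp26a1 and Dhrs3 of 0.911, and Rara and Rarg of -0.919. Among 12836 genes that averaged 2 CPM or more, the 3 most like Crabp1 were Rps27, Fras1 and Rhobtb2 (r from 0.996 to 0.998), and those most like Stra6 were Sec22b, Rnf115 and Uqcc1 (0.994 to 0.996). Crabp2 was most like Extl2 (0.997), Rarb and Ube2d3. Rarb was most like Extl2 (0.998), Crabp2 and Lmx1b. Rps27, Extl2, Ube2d3, Sec22b and Rnf115 lie on chromosome 3. Rara was most like Slc16a13, Fbxl8 and the partner receptor Rxra (0.977), and Rarg most like Ppm1b, Slc19a2 and Braf (0.989 to 0.996). The low genes Cyp26a1 (Pllp, Itga4, Dlc1), Cyp26b1 (Cib2, Slc35d1, Mdm4) and Dhrs3 (B3glct, Gnpda2, Phc1) had r from 0.953 to 0.987.

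Beyond the 9 genes, 60 other retinoid genes were listed by role, and 42 of them passed the filter. The filter removed 12 of 21 synthesis genes, Aldh1a1 and Aldh1a3 among them, none with more than 12 reads in a library, and the degrading enzyme Cyp26c1, with at most 4. Of the 42, 7 were called in Tbxt delE6/delE6 (3 higher, 4 lower; 16.7%), 10 in Tbxt delE6/+ (8 higher, 2 lower; 23.8%) and 14 in Tbxt Insert ASAY (8 higher, 6 lower; 33.3%), beside the 12.7%, 13.5% and 21.3% of all tested genes given above.

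**Figure D4:**
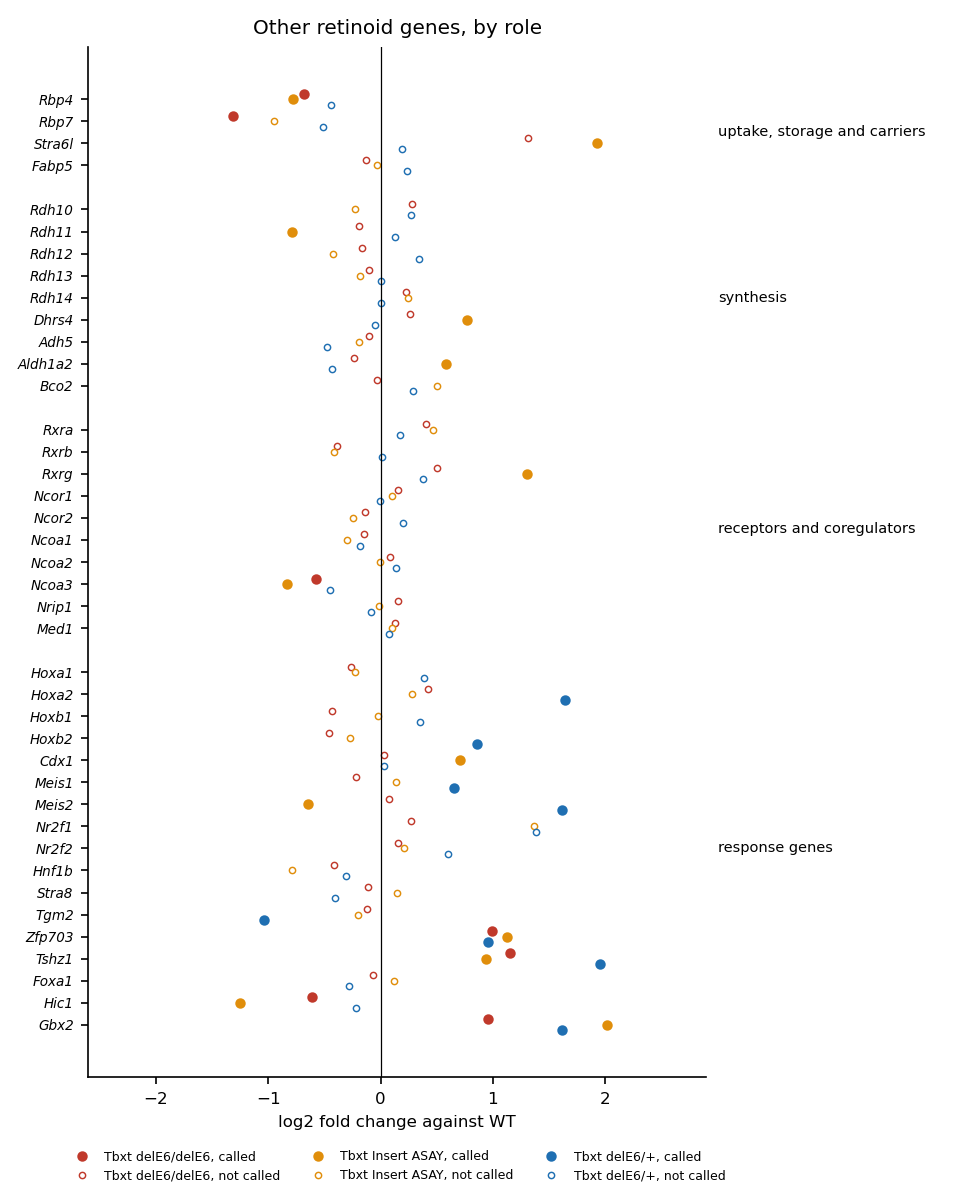
Log2 fold change against WT (x axis) of 40 of the 42 other retinoid genes that passed the filter (y axis, grouped by role) in the 3 edited lines; filled points were called, open points were not. In Tbxt delE6/+ called response genes such as Tshz1, Hoxa2, Meis2, Gbx2, Zfp703, Hoxb2 and Meis1 lie between 0.65 and 1.95.

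Some of the response genes, a list of transcription factors and other genes known to respond to retinoic acid, differed in Tbxt delE6/+. There 8 of 18 were called higher and 1 lower, with a median log2 fold change of 0.62 against -0.0006 for all tested genes. Tshz1, a zinc finger factor, rose from 1.30 and 0.670 CPM in WT to 3.98 and 3.68 (log2 fold change 1.95 ± 0.29, adjusted p = 0.000225). Gbx2, which helps to set the boundary of midbrain and hindbrain, rose from 2.85 and 2.903 to 8.97 and 8.71 CPM (1.62 ± 0.14, adjusted p = 2.41e-06). Meis2, a cofactor of Hox proteins, rose from 26.7 and 24.5 to 84.0 and 73.1 CPM (1.62 ± 0.15, adjusted p = 4.66e-06). Both Tbxt delE6/+ libraries stood above both WT libraries for each of these 3 genes. The share of all tested genes with such a gap was not counted, so the gap adds nothing to the calls.

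Zfp703 rose in Tbxt delE6/+ (log2 fold change 0.96), as did Hoxb2 (0.86) and Hoxa2 (1.64), and Meis1, named after its value was seen, was at 0.65. Hoxa2, at 0.858 and 1.21 CPM in Tbxt delE6/+ and 0.433 and 0.223 in WT, lost its call in 6 of 15 alternatives, among them each fit without a WT or a Tbxt delE6/+ library (1.25 to 2.19). Hoxb2 lost its call without Tbxt delE6/+ replicate 1 (0.60, adjusted p = 0.0696). Tgm2, a transglutaminase, fell by 1.04. Of 4 tested neural progenitor markers, 3 were also called higher in Tbxt delE6/+: Sox1 was at 24.5 and 23.6 CPM against 6.32 and 5.36 in WT, with Nes, the highest of the list, at 68.2 and 68.2 against 89.7 and 94.1, so that the summed level of the 5 listed markers was 104 and 104 against 101 and 103 CPM. Of all tested genes, 6.6% were called higher in Tbxt delE6/+. The part of neural progenitor cells in the retinoid values was not tested.

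In Tbxt Insert ASAY, 4 of 18 response genes were called higher and 3 lower (38.9% called), beside 21.3% of all tested genes. Gbx2 rose to 11.7 and 11.5 CPM (log2 fold change 2.01 ± 0.13, adjusted p = 1.17e-06), and Zfp703 (1.12) and Tshz1 (0.94) rose as well; Cdx1, named after its value was seen, was the fourth (0.71). Meis2 (-0.64) and Hic1 (-1.25) were among those that fell. Tshz1 lost its call without WT replicate 2 (0.54) and without Tbxt Insert ASAY replicate 2 (0.59), and Meis2 without WT replicate 1 (-0.58). Meis2 was thus called in opposite directions in Tbxt Insert ASAY and Tbxt delE6/+, and its difference between these lines was itself called (log2 fold change of -2.26 against Tbxt delE6/+).

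In Tbxt delE6/delE6, 4 of 18 response genes were called (22.2%), beside 12.7% of all tested genes. Tshz1 (log2 fold change 1.16), Zfp703 (0.99) and Gbx2 (0.95) were called higher and Hic1 (-0.61) lower. These 3 rising genes were called higher in every edited line, each time against the same 2 WT libraries, so the 3 comparisons are not independent. Tshz1 lost its call here without WT replicate 2 (0.76) and without Tbxt delE6/delE6 replicate 2 (0.91), and Hic1 without WT replicate 1 (-0.54) and in DESeq2 (adjusted p = 0.0524). The summed neural progenitor markers were 146 and 195 CPM in this line, most of it Nes, with 1 of 4 tested markers called higher.

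Among carriers, Rbp4, the plasma carrier of retinol, fell in Tbxt delE6/delE6 (log2 fold change -0.68) and Tbxt Insert ASAY (-0.78). Rbp7 had a call in Tbxt delE6/delE6 (-1.31) that was lost without either WT library (-1.18 and -1.43), without Tbxt delE6/delE6 replicate 2 (-0.62) without either Tbxt Insert ASAY library (-1.31 and -1.31) and in a fit of the 2 groups alone (-1.31). Stra6l, a relative of Stra6, rose in Tbxt Insert ASAY from 0.217 and 0.335 to 0.875 and 1.24 CPM (1.93 ± 0.45, adjusted p = 0.00356).

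Of 9 tested synthesis genes, Tbxt Insert ASAY had 2 called higher, Aldh1a2 (0.58) and Dhrs4 (0.77), both named after their values were seen, and Rdh11 lower (-0.78). The share called was 33.3%, beside 21.3% of all tested genes. In Tbxt delE6/delE6 and in Tbxt delE6/+ edgeR and DESeq2 each called 0 of the 9, with 3 at an unadjusted p under 0.05 in edgeR in either line. With 12.7% and 13.5% of all tested genes called in these lines in edgeR, 0 of 9 is not far from that share. Aldh1a2, the main retinaldehyde dehydrogenase of the early embryo, was at 2.67 and 2.20 CPM in WT, 4.01 and 3.29 in Tbxt Insert ASAY and 1.93 and 1.68 in Tbxt delE6/+.

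Of 10 tested receptors and coregulators, Rxrg (log2 fold change 1.30) was called higher and the coactivator Ncoa3 lower (-0.83) in Tbxt Insert ASAY, a share close to the 21.3% of all tested genes. Rxrg was at 1.13 and 2.23 CPM there and lost its call without WT replicate 1 (1.17) and without Tbxt Insert ASAY replicate 2 (0.73). Ncoa3 was also called lower in Tbxt delE6/delE6 (-0.57), a call lost without Tbxt delE6/delE6 replicate 2 (-0.39). In Tbxt delE6/+ edgeR and DESeq2 called 0 of the 10, with 4 at an unadjusted p under 0.05 in edgeR, beside 13.5% of all tested genes called in edgeR.

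Markers of fibroblasts, primitive endoderm and primitive streak had low summed levels in all libraries. The 7 fibroblast markers, which feeder cells would carry, summed to 22.3 and 25.9 CPM in WT, 15.4 and 18.5 in Tbxt delE6/delE6, 12.8 and 13.3 in Tbxt Insert ASAY and 24.3 and 24.6 in Tbxt delE6/+, with Postn at 0 reads in both Tbxt Insert ASAY libraries and Lum at 0 in a library of Tbxt Insert ASAY and of Tbxt delE6/+. Of the 5 fibroblast markers tested, 4 were called lower in Tbxt Insert ASAY and 2 lower in Tbxt delE6/delE6, and in Tbxt delE6/+ 2 were called higher and 1 lower. The 7 primitive endoderm markers, all with reads in every library, summed to 17.9 and 19.2 CPM in WT and 21.5 and 21.9 in Tbxt delE6/+, within 12.6 to 17.2 in the other lines. Of these 7, 2 were called higher in Tbxt delE6/+ and 1 lower in Tbxt delE6/delE6. The 6 primitive streak markers, Tbxt among them, summed to 15.7 and 17.1 CPM in WT, 22.3 and 22.6 in Tbxt delE6/delE6, 16.3 and 19.98 in Tbxt Insert ASAY and 8.78 and 10.9 in Tbxt delE6/+. Most of each sum was Eomes, at 13.2 and 14.8 CPM in WT and 20.4 and 20.3 in Tbxt delE6/delE6. Of the 3 tested, 1 was called higher and 1 lower in Tbxt delE6/delE6, 1 higher in Tbxt Insert ASAY and 1 lower in Tbxt delE6/+. The marker called lower in Tbxt delE6/delE6 was Tbxt itself (log2 fold change -0.81, adjusted p = 0.0360 in edgeR). Beside these marker counts, 12.7% of all tested genes were called in Tbxt delE6/delE6, 13.5% in Tbxt delE6/+ and 21.3% in Tbxt Insert ASAY. The part of any of these cell types in the values of the 9 genes was not tested.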

How the data were processed

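Poly(A) RNA of day-1 differentiated mouse ES cells was sequenced from stranded libraries (NEBNext Ultra II Directional). The authors mapped reads to mm10 with STAR 2.7.2a and deposited counts per gene, as whole numbers without normalization; the second strand-specific column was used, since 4.11% to 4.78% of assigned reads lay on the other strand. Summary lines without a gene were left out. Symbols and coordinates came from GENCODE M21 (48058 of 48440 identifiers matched).

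The analysis used edgeR 4.0.16 in R 4.3.3: filterByExpr (minimum count 10, minimum total 15), TMM scaling, and 1 quasi-likelihood fit of all 8 libraries with a coefficient per genotype, giving 6 comparisons. The fit assumes that a gene has the same spread in every genotype, while the Tbxt delE6/delE6 libraries differed more than the other pairs. Errors and p-values in comparisons with that line may therefore be too small. The thresholds (adjusted p under 0.05, log2 fold change over 0.5) follow the study, whose authors used DESeq2 1.40.2. In a test on simulated counts for Tbxt delE6/+ against WT, 195 of 200 genes planted with a log2 change of 1 were recovered, with 6 false calls. The planted genes averaged over 2 CPM, and each gene was given the same spread in every genotype. The recovery therefore does not cover Cyp26a1 (mean 0.589 CPM), Cyp26b1 (0.693) and Dhrs3 (1.49), nor the wider spread of Tbxt delE6/delE6. Depth was 24618587 to 28445952 reads a library, so that 3 reads come to 0.108 to 0.123 CPM; intervals cover counting error only. Where nothing says that libraries of a line came from separate cultures or clones, p-values measure only the spread between these samples. Replicate numbers did not pair the libraries.

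The 9 genes and the lists were chosen with earlier results of these data known. Other retinoid genes were named if called in at least 1 comparison with WT, at most 15 by size, with for each of the 9 genes the 3 genes of highest Pearson r (log2 CPM with a prior count of 2). Alternatives were DESeq2 1.42.0, its size factors, no filter, 10 reads in every library, unstranded counts, only the groups compared, a replicate block, leaving out each library and, added after seeing the data, scaling without chromosome 3. Promoters (RefSeq, GRCm38.p6) were searched in Python 3.11.15; plots used matplotlib 3.10.9. Isoforms were not analysed here. Of the other retinoid genes, 2 are counted in the lists but not reported here one by one.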

Additional observations from a re-analysis of the deposited data

Results flagged for a closer look

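Crabp1 changed in opposite directions in the exon 6 deletion lines. It was higher than WT in both Tbxt delE6/+ libraries and lower in both Tbxt delE6/delE6 libraries, and the difference between the lines was itself called (log2 fold change of Tbxt delE6/+ against Tbxt delE6/delE6 2.48 ± 0.14, adjusted p = 4.96e-08 in edgeR). Both calls against WT held in all 16 alternatives, with log2 fold changes of 1.59 to 1.95 in Tbxt delE6/+ and -0.89 to -0.51 in Tbxt delE6/delE6.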

How the results depend on the processing

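Of 854 alternative values of the log2 fold changes of the 9 genes, 803 kept their direction and their side of the thresholds, 29 lost a call, 11 gained one and 11 changed sign, with no call on either side of a change of sign. Crabp1, Crabp2, Rarb and Stra6 in Tbxt delE6/+ and Crabp2 in the other lines kept their calls in all 16 alternatives. DESeq2 called 3 of the 9 genes against 5 in Tbxt delE6/delE6 and 3 against 5 in Tbxt Insert ASAY. With 1 library left out, the members called ranged from 3 to 6 in Tbxt delE6/delE6 and from 2 to 6 in Tbxt Insert ASAY, and the other retinoid genes called in Tbxt delE6/delE6 from 4 to 14 (4 without replicate 2, 14 without replicate 1). The genes called of all tested ranged there from 1149 without replicate 2 to 3388 without replicate 1, against 2167. Between Tbxt Insert ASAY and Tbxt delE6/delE6, 880 genes were called, 582 in DESeq2, 572 with only these groups, and 358 (without Tbxt Insert ASAY replicate 1) to 1529 (without Tbxt delE6/delE6 replicate 2) with a library left out. The causes were not tested.

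Values that changed sign were not called. With unstranded counts, Hoxa2 in Tbxt Insert ASAY was at -0.13 (0.28 in the fit reported) and Cyp26b1 in Tbxt delE6/+ against Tbxt delE6/delE6 at -0.014 (0.16). With a library left out, log2 fold changes against WT ranged from -0.024 to 0.16 for Stra6, -1.14 to 1.21 for Hoxa2 and -0.29 to 0.39 for Meis2 in Tbxt delE6/delE6, from -0.11 to 0.83 for Hoxa2 in Tbxt Insert ASAY, and in Tbxt delE6/+ from -0.025 to 0.20 for Rara, -0.089 to 0.0063 for Rarg, -0.31 to 0.15 for Cyp26a1 and -0.090 to 0.53 for Stra6l. Against Tbxt delE6/delE6 they ranged from -0.35 to 0.85 for Cyp26b1 in Tbxt delE6/+, and in Tbxt Insert ASAY from -0.052 to 0.17 for Crabp2, -0.018 to 0.22 for Rara, -0.84 to 0.35 for Cyp26b1 and -0.25 to 0.63 for Dhrs3.

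Libraries of the same number did not deviate together (r of -0.10 to 0.07 over genotype pairs), and the replicate block changed 1 named call, Stra6l in Tbxt delE6/delE6 (log2 fold change 1.28, adjusted p = 0.0293 in edgeR). Scaling without chromosome 3, chosen after seeing the data, changed no count of the 9 genes called. The calls of Cyp26a1, Cyp26b1 and Dhrs3 against WT, on at most 58 reads in a library, were each lost in some alternatives.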

Other observations

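Of the 31 genes with a DR5 in a promoter window, 6 passed the filter on low counts: Rarb, Cyp26a1, Blvrb, Cfap45, Prokr2 and Syndig1, named here after their values were seen. In Tbxt delE6/+ Rarb was called higher and Blvrb, a biliverdin reductase, lower (log2 fold change -0.61). In Tbxt delE6/delE6 and in Tbxt Insert ASAY Rarb was called higher and Cyp26a1 lower, with no call among the other 4. The shares of all tested genes called were 12.7% in Tbxt delE6/delE6, 13.5% in Tbxt delE6/+ and 21.3% in Tbxt Insert ASAY. Rarb and Cyp26a1 were listed with earlier results of these data known, and Blvrb gave the only call outside this pair. Whether genes with a DR5 differ from other genes was not tested.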
